A study of Mus musculus with 2 samples.

Results

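A-delta low-threshold mechanoreceptors are the lightly myelinated touch neurons that innervate down hairs, and they are among the most sensitive of all neurons to hair movement and skin stretch. Their cell bodies lie in the dorsal root ganglia beside the spinal cord. They carry Ntrk2, the receptor for the neurotrophins BDNF and NT4, and the T-type calcium channel Cacna1h, which lowers the threshold for firing, and they open the mechanically gated channel Piezo2 when touched. Textbook markers of them are Ntrk2, Colq (the collagen tail that anchors acetylcholinesterase), Necab2 (a neuronal calcium-binding protein), Cadps2 (a vesicle-priming protein) and Nefh, the heavy neurofilament of thick, myelinated axons. Nefh is shared with other neurons of myelinated axons and does not set them apart from those.

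The members described here are 275 cells of 27777 deposited barcodes, or of the 10009 barcodes that held at least 5000 unique molecular identifiers (UMIs, counted molecules). They were selected on measured values. A member had at least 2 UMIs of Ntrk2 and 5 of Nefh per 10000 UMIs of the cell and at least 1 UMI of Colq. It had fewer than 5 per 10000 of Pvalb, of Calca, of Th and of Nppb with Il31ra, and fewer than 3 of Mrgprd and of Trpm8, which mark other sensory neurons. Because Ntrk2, Nefh and Colq chose the members, their levels are given only as a description.

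Cervical dorsal root ganglia of mice were fixed in 4% paraformaldehyde and read with pairs of gene probes, not by reverse transcription, in the fixed RNA format of droplet single-cell sequencing. Both groups carried Foxp3 CreER, a recombinase that tamoxifen activates in cells expressing Foxp3, the defining transcription factor of regulatory T cells, and both were given tamoxifen and 3 days of imiquimod, an irritant that starts a psoriasis-like skin inflammation. The control group was Foxp3 CreER; Penk fl/WT (called fl/WT below) and the other group Foxp3 CreER; Penk fl/fl (called fl/fl), so that 1 or both copies, respectively, of Penk, the gene of the enkephalin opioid peptides, could be deleted in those cells. The comparison asks whether touch neurons differ when both copies can be lost there. Each group was 1 library of pooled tissue, and no test between genotypes was possible. The labels state neither the age and sex of the mice nor how many entered a pool. All intervals below are 95% intervals that cover counting error only and leave out the spread between animals.

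The fl/WT library held 15710 barcodes and 259136217 UMIs, and the fl/fl library 12067 barcodes and 156441497 UMIs. The 2 libraries had 4723 droplet barcodes in common. Of the fl/WT members 84 (48.6%), and of the fl/fl members 45 (44.1%), lay in such a droplet, against 38.4% and 46.8% of all barcodes with at least 5000 UMIs. In 0 droplets was there a member in both libraries. For some results a value without these cells is also given.

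Members made up 173 of 5907 fl/WT barcodes with at least 5000 UMIs, a share of 2.93% (Clopper-Pearson interval 2.51 to 3.39), and 102 of 4102 fl/fl barcodes, a share of 2.49% (2.03 to 3.01). The ratio of the shares was 0.849 (0.658 to 1.09), an interval that includes 1. Without the droplets found in both libraries the ratio was 1.07. Members were deep cells, with a median of 67248 UMIs in fl/WT (6104 to 298042) and 68998 in fl/fl (5081 to 199960). The share rose with depth, from 0.874% of fl/WT and 0.557% of fl/fl barcodes with 5000 to 10000 UMIs to 10.4% and 12.1% of those with at least 100000. Colq was the condition most often missed alone: 450 fl/WT and 302 fl/fl barcodes met every other condition and had no UMI of Colq, more than the members themselves, whereas 33 and 23 missed Ntrk2 alone. The share thus counts only cells in which Colq was seen. Just inside the Ntrk2 limit lay cells at 2.07 in fl/WT and 2.03 in fl/fl per 10000, and just outside it cells at 1.75 and 1.88.

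The 5 marker genes were at like levels in both libraries, with Ntrk2, Nefh and Colq required by the gate. In fl/WT members, Ntrk2 (chromosome 13, 58954176 to 59281784, plus strand of GRCm39) had a median of 6.18 UMIs per 10000 with quartiles of 3.84 and 8.41, and in fl/fl members a median of 6.99 with quartiles of 3.90 and 8.47. Nefh (chromosome 11, 4888740 to 4898130, minus strand) was the most abundant of the 5, with medians of 21.1 and 21.5. Colq (chromosome 14, 31243665 to 31313300, minus strand) was sparse, with medians of 0.359 and 0.407, and the gate required it. Necab2 (chromosome 8, 120173399 to 120199379, plus strand), which the gate did not use, had medians of 3.46 and 4.04, and Cadps2 (chromosome 6, 23262103 to 23839546, minus strand) medians of 1.68 and 2.23. For both of these genes the quartiles were wide, 1.08 to 5.63 and 0.867 to 5.98 for Necab2 and 0.791 to 2.47 and 0.761 to 2.96 for Cadps2, with cells at 0 in both libraries.

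**Figure D1:**
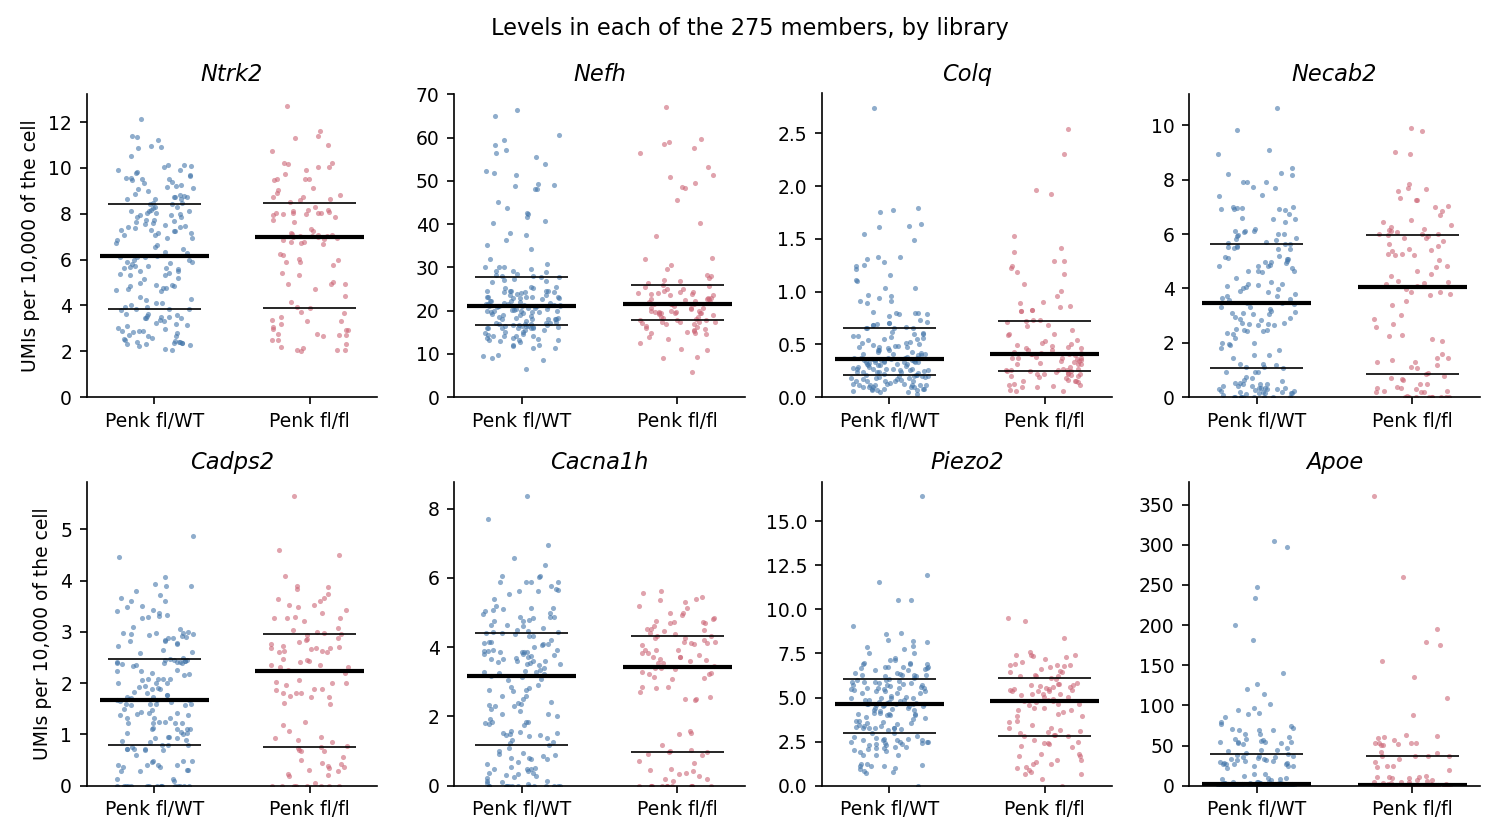
Level of 8 genes in each of the 275 members, in UMIs per 10000 UMIs of the cell, by library; each point is a cell, the thick line the median and the thin lines the quartiles. Ntrk2, Nefh and Colq were used to choose the members. Necab2, Cadps2 and Cacna1h spread from 0 to high levels within each library, and Apoe, a glial gene, has medians of 2.62 and 1.43 with upper quartiles of 39.3 and 36.5.

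Shares of cells with a UMI follow depth and free RNA, so they were also taken at a fixed depth and set against other neurons. Necab2 was seen in 94.8% of fl/WT and 91.2% of fl/fl members as counted. Thinned to 1000 UMIs per cell, 26.6% and 25.5% of members had a UMI of Necab2, against 2.85% and 2.33% of neurons gated on Ntrk3. The median depths before thinning were 67248 and 68998 UMIs in members and 19653 and 17349 in the Ntrk3 gate. The intervals of the thinned shares, 20.2% to 33.8% and 17.4% to 35.1% in members and 1.48% to 4.93% and 0.861% to 5.01% in the Ntrk3 gate, did not overlap in either library. Cells of 1 library are not replicates. The Ntrk3 gate took cells with little Ntrk2 and no Colq, the reverse of the members, so these shares are a description. Neurons gated on Th had Necab2 as well, at 16.8% (11.9 to 22.7) in fl/WT and 8.07% (4.37 to 13.4) in fl/fl. The fl/WT interval of the Th gate overlapped that of the members. In neurons gated on Pvalb the shares were 4.73% and 3.11%.

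Necab2, a marker of the cell type that the gate did not use, was uneven among the members. It was used to divide them into a larger group with at least 2 UMIs per 10000, called Necab2-high here, of 115 of 173 fl/WT members (66.5%, 58.9 to 73.5) and 66 of 102 fl/fl members (64.7%, 54.6 to 73.9), and a Necab2-low group of 58 and 36. The limit of 2 was chosen after the levels had been seen. In fl/WT, 43 members had between 0 and 1 per 10000, 15 between 1 and 2, 18 between 2 and 3, 21 between 3 and 4 and 43 in the wider step from 4 to 6. In fl/fl the same 5 steps held 27, 9, 7, 8 and 26 members. The step from 0 to 1 was the fullest for its width in both libraries. The least full was the step from 1 to 2 in fl/WT, and in fl/fl the steps from 1 to 4 were. No gap in the fl/WT levels marks the limit. The groups are ranges of 1 measure, and whether they are types of cell was not tested. Since the groups were cut from the same cells, the genes that follow are described and not tested.

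**Figure D2:**
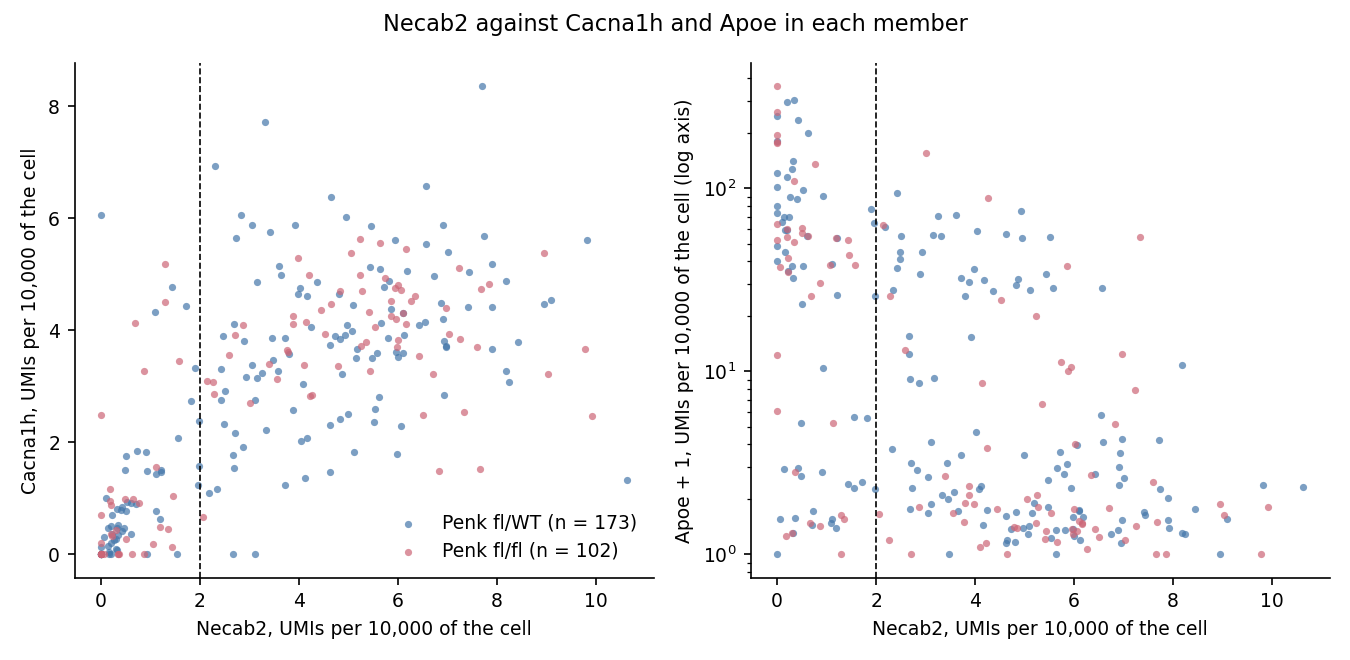
Necab2 against Cacna1h (left) and against Apoe with 1 added (right, log axis) in each member, in UMIs per 10000 UMIs of the cell; each point is a cell, coloured by library, and the dashed line marks the Necab2 limit of 2. Cells under the limit have little Cacna1h with some exceptions, and Apoe falls into a low and a high band on both sides of the line.

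Necab2-high members had more Cacna1h, a gene known from A-delta touch neurons, than Necab2-low members. Levels of a group are given in CPM, the UMIs of a gene summed over the cells of the group per 1000000 UMIs of those cells. Cacna1h stood at 394 CPM in Necab2-high and 84.5 in Necab2-low fl/WT members, and at 395 and 70.5 in fl/fl. The genes named next were picked after their values had been seen. Lypd1, a regulator of nicotinic receptors, was at 193 against 12.1 in fl/WT and 217 against 4.62 in fl/fl. Fxyd2, a regulatory subunit of the sodium pump, was at 5415 against 581 CPM in fl/WT and 5740 against 714 in fl/fl. Pdlim1 (178 against 16.9, and 203 against 18.5), the nicotinic receptor subunit Chrna6 (61.6 against 7.99, and 70.0 against 6.16) and the potassium channel Kcnc2 (53.8 against 8.34, and 62.7 against 6.16) followed the same order in both libraries. Necab2-high members were also higher in the summed markers of C-fibre touch neurons and of Mrgprd nociceptors. The 7 markers of C-fibre touch neurons, Th among them, stood at 636 CPM against 248 in fl/WT and at 617 against 183 in fl/fl. The 8 markers of Mrgprd nociceptors stood at 615 against 344 and 550 against 407. The gate limits Th and Mrgprd.

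Necab2-low members were higher in the summed markers of A-beta touch neurons and of proprioceptors. The 9 A-beta markers stood at 1161 CPM against 416 in fl/WT and at 923 against 398 in fl/fl. The 8 proprioceptor markers, of which Ntrk3 is on both lists and the gate limits Pvalb, stood at 530 against 214 and 466 against 218. Of the genes that follow, all picked after their values had been seen, Calb1, Calb2 and Maf are on the A-beta list. Calb1, a calcium buffer, stood at 196 CPM in Necab2-low against 20.6 in Necab2-high fl/WT members, and at 185 against 14.0 in fl/fl. Syt2, the calcium sensor of fast transmitter release, was at 313 against 26.8 and 357 against 35.2. The acid-sensing channel gene Asic3 was at 168 against 9.99 and 158 against 14.4. The kinase Pak1 was at 106 against 6.95 and 108 against 4.73, the exchanger Slc24a2 at 220 against 16.8 and 225 against 15.5, and the transcription factor Maf at 222 against 60.9 and 217 against 55.8. Calb2, or calretinin, was at 131 against 1.10 in fl/WT and 48.9 against 0.568 in fl/fl, and rested on few cells: it was seen in 24 fl/WT and 9 fl/fl members, of which 1 cell held 38.6% and 64.6% of its UMIs.

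Among 8575 genes with enough UMIs, 36 (0.42%) were at least 4-fold higher and 76 (0.886%) at least 4-fold lower in Necab2-high than in Necab2-low members of both libraries. Across genes, the Necab2-low profile had a Spearman rho of 0.964 in fl/WT and 0.933 in fl/fl with neurons gated on Ntrk3, above its rho with Necab2-high members of 0.944 and 0.897. Necab2-high members had a rho of 0.906 and 0.871 with the Ntrk3 gate, 0.872 and 0.834 with a gate on Th and 0.867 and 0.807 with a gate on Pvalb. These are descriptions over 7098 genes in fl/WT and 5140 in fl/fl, which are not independent, and the profiles share a library. For some later results the value over Necab2-high members is given beside that over all members.

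Members also varied in the level of glial genes. Apoe, a lipid carrier that satellite glia make in quantity, reached at least 10 UMIs per 10000 in 70 of 173 fl/WT members (40.5%) and 37 of 102 fl/fl members (36.3%), a limit chosen after the levels had been seen. Summed over 9 satellite glia markers, all of them detected, the level per cell ran from 3.24 to 413 per 10000 in fl/WT with a median of 14.1, and from 3.13 to 433 in fl/fl with a median of 12.3. Necab2-low members had more of these markers, with medians of 54.6 and 73.6 against 11.9 and 10.8 in Necab2-high members. In fl/fl, 67.6% of the members with high Apoe lay in a droplet barcode shared with the other library, against 30.8% of those with low Apoe, and in fl/WT 50% against 47.6%. Free RNA, attached glia and doublets cannot be told apart here.

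The genes that varied most among members were mostly glial. Thinned to 5000 UMIs per cell, 4876 genes had a mean of at least 0.2 UMI in both libraries, and their median Fano factor (variance over mean, 1 for counting noise alone) was 1.04 in each. Apoe reached 48.2 and 60.4, Apod 32.7 and 29.2, the filament gene Vim 10.1 and 17.2, and the matrix gene Sparc 7.72 and 8.54. Mbp (13.4 and 7.45) and Prx (7.16 and 6.90), both of myelin, and Fabp7 (6.85 and 9.08) of satellite glia were also among the first 10. Fxyd2, with 8.21 and 9.50, was the first gene in that order that marks the Necab2-high members, and the actin-binding gene Tmsb4x closed the 10 with 6.26 and 6.15.

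Members were then set beside other touch and muscle neurons, gated in the same barcodes. The Ntrk3 gate (421 fl/WT and 257 fl/fl cells) took Nefh cells with Ntrk3, little Ntrk2 and no Colq, as in fast A-beta touch neurons. A gate on Th with fewer than 5 UMIs of Nefh per 10000 (202 and 161 cells) took cells like the C-fibre touch neurons, and one on Pvalb with Nefh (761 and 450 cells) cells like the muscle-sensing proprioceptors. Genes used by either gate were left out, a gene needed 100 UMIs in each library, and a 4-fold difference in the same direction in both libraries counted. Members were deeper than these cells, whose medians were 19653 and 17349, 35494.5 and 30721, and 19556 and 15156.5 UMIs.

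Against the Ntrk3 gate, 100 of 10256 genes (0.975%) were at least 4-fold higher and 80 (0.78%) at least 4-fold lower in members. Over Necab2-high members 230 were lower. Cacna1h stood at 268 CPM in members and 10.4 in the gate in fl/WT, and at 288 and 9.18 in fl/fl, a ratio of 25.9 and 31.4. Cadps2 was at 172 against 6.61 and 200 against 8.49, and Necab2 at 327 against 19.0 and 365 against 18.3. Lypd1 (119 against 2.10, and 147 against 0.898), Tmem72 (236 against 12.6, and 300.3 against 10.7), Pdlim1 (112 against 5.03, and 142 against 3.39) and the adenosine receptor gene Adora2a (52.0 against 2.36, and 56.2 against 2.30) were also among the 10 highest ratios. The lowest ratio was that of Syt17, with 4 UMIs in fl/WT members and 0 in fl/fl, against 14.9 and 16.7 CPM in the gate. Trappc3l, the fifth lowest, was at 37.6 against 574 in fl/WT and 8.38 against 518 in fl/fl. Runx3, a transcription factor of Ntrk3 neurons, was at 2.02 against 26.9 and 2.41 against 30.6, and Aldh1a1, the enzyme that makes retinoic acid, at 2.67 against 35.5 and 2.16 against 29.3.

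Against the Th gate, 453 of 9692 genes (4.67%) were at least 4-fold higher and 197 (2.03%) lower in members. The higher genes were 263 over Necab2-high members and 261 in droplets of 1 library only. Vsnl1, a calcium sensor, was at 336 CPM in members and 4.03 in the gate in fl/WT and at 400 and 3.40 in fl/fl. Ntng1, which encodes the axonal adhesion protein netrin G1, was at 147 against 0.896 and 143 against 0.756. Kcnk18, the leak potassium channel TRESK, was at 51.7 against 0.597 and 54.6 against 0.567. On the other side stood Tafa4, a secreted protein of C-fibre touch neurons, at 9.03 against 703 and 4.70 against 667, and Cacna1i, a second T-type calcium channel gene, at 2.31 against 288 and 0.381 against 273. The Th gate had both T-type genes, with Cacna1h at 164 and 140 CPM. Fxyd2 was as abundant in the Th gate, at 6037 and 6170, as in Necab2-high members.

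Against the Pvalb gate, 194 of 10898 genes (1.78%) were higher and 197 (1.81%) lower in members. Over Necab2-high members 366 were lower. Cadps2 (172 against 2.93, and 200 against 3.01) and Rab3b, a small GTPase of secretory vesicles (107 against 4.58, and 125 against 4.49), were among the highest. Runx3 was at 2.02 against 103 and 2.41 against 110, Whrn, a scaffold protein of proprioceptors, at 5.78 against 229 and 2.41 against 216, and Nxph1 at 0.939 against 57.8 and 0.635 against 69.3. Adtrp, which was in the first 10 for all 3 gates, was low even in members, at 14.7 and 19.3 CPM, and close to 0 in the gates.

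**Figure D3:**
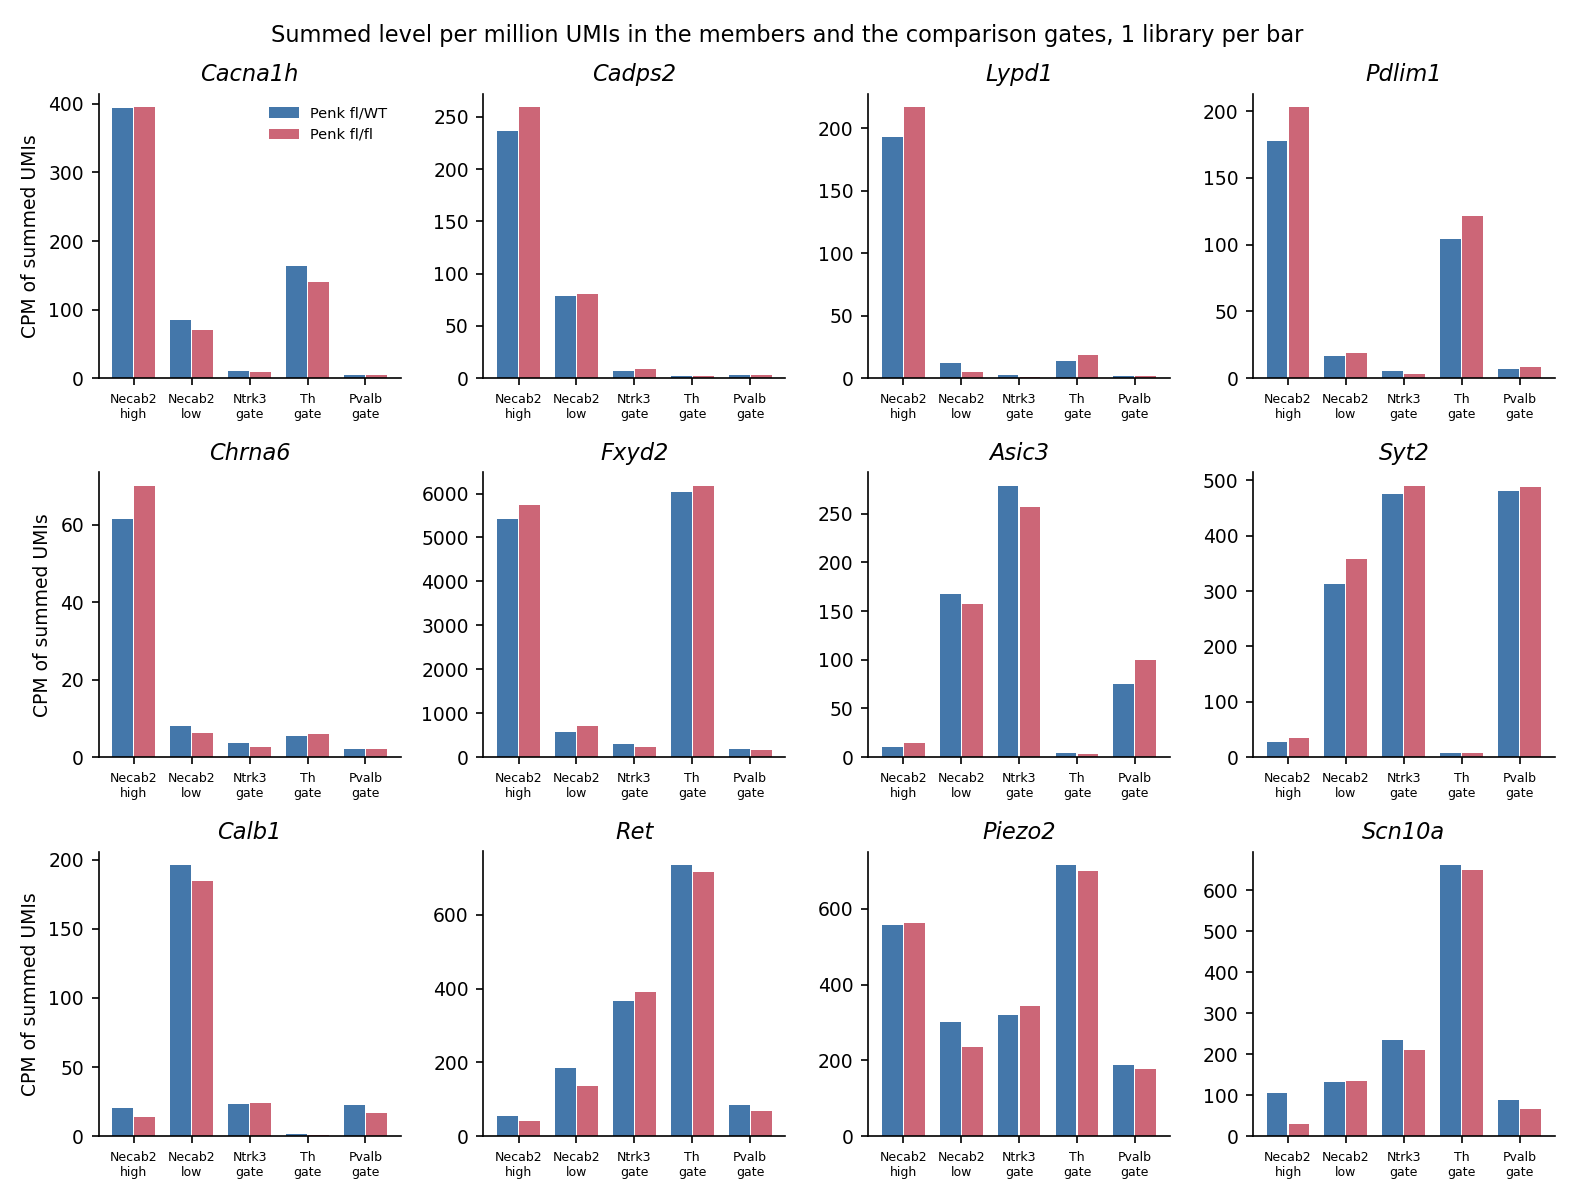
Level of 12 genes in CPM of summed UMIs, in Necab2-high and Necab2-low members and in the cells gated on Ntrk3, Th and Pvalb; each bar is 1 library, with no error bar, and axes start at 0. Cacna1h, Cadps2, Lypd1 and Chrna6 are highest in Necab2-high members, and Asic3 and Syt2 in Necab2-low members are nearer to the Ntrk3 gate.

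Between genotypes, most genes of the members were at like levels. Of 10583 genes with at least 100 UMIs over the members of both libraries, 37 (0.35%) were at least 1.5-fold higher and 189 (1.79%) at least 1.5-fold lower in fl/fl, a size rule and not a test. These counts moved with the cells taken: 145 genes were higher with each member weighted equally and 19 over members with Apoe under 10, and 443 were lower in droplets of 1 library only, 303 over Necab2-high members and 312 over members with at least 2 UMIs of Colq. The median ratio of fl/fl to fl/WT over these genes was 0.982. The markers lay near it: Ntrk2 at 595 and 628 CPM (ratio 1.06, 1.02 to 1.09), Nefh at 2780 and 2717 (0.98, 0.961 to 0.994), Colq at 33.3 and 36.8 (1.10, 0.951 to 1.28), Necab2 at 327 and 365 (1.11, 1.06 to 1.17) and Cadps2 at 172 and 200 (1.17, 1.09 to 1.24). The gate used Ntrk2, Nefh and Colq with the same limits in both libraries, so nothing is read from the nearness of their ratios. Over the Necab2-high members alone the ratio of Necab2 was 1.00 and that of Cadps2 1.10.

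**Figure D4:**
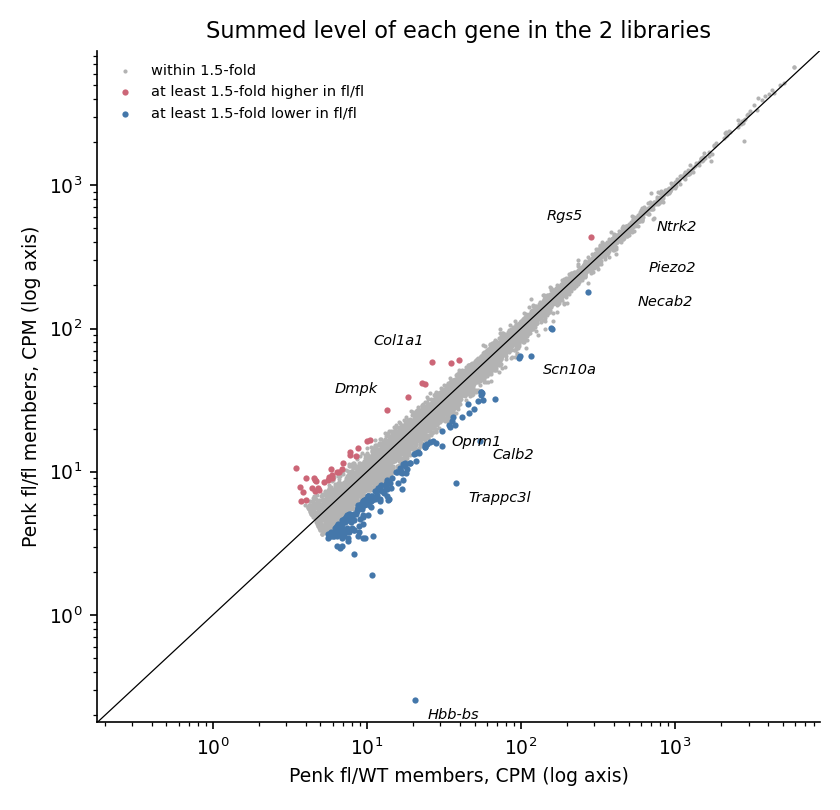
CPM of each of 10583 genes in fl/WT members (x, log axis) and fl/fl members (y, log axis), with the line of equality; red points are the 37 genes at least 1.5-fold higher and blue points the 189 at least 1.5-fold lower in fl/fl. Genes past the limit lie mostly at low CPM, and Ntrk2, which the gate used, Necab2 and Piezo2 lie near the line.

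The channels that turn touch into current were close to equal. Of 23 measured mechanotransduction genes 16 had enough UMIs, 0 were 1.5-fold higher and 1, Asic1, was lower, with a median ratio of 0.935. Over all genes 0.35% were higher and 1.79% lower. Piezo2, the main touch channel, was at 453 CPM in fl/WT and 455 in fl/fl (1.00, 0.963 to 1.05). Tmem150c was at 74.9 and 71.8 and Asic2 at 196 and 197. Asic1, at 17.1 and 11.3 CPM, was the exception at 0.66 (0.514 to 0.845), and at 8.17 and 5.68 in Necab2-high members. Stoml3, which tunes touch channels, had 3 UMIs in fl/WT members and 0 in fl/fl.

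Calcium channel genes were close, and a few sodium and potassium channel genes were lower in fl/fl. Among 11 calcium channel genes 0 were past the limit in either direction and the median ratio was 0.981, with Cacna1h at 268 and 288 CPM (1.08, 1.02 to 1.13). Among 11 sodium channel genes 0 were higher and 2 lower, Scn2b (16.9 and 9.77 CPM, 0.58) and Scn10a, against 1.79% lower over all genes. Scn1a (248 and 267), Scn8a (239 and 253), the channels of fast myelinated axons, and Scn9a (417 and 411) were within 1.15-fold. Scn10a, the resistant sodium channel of pain fibres, stood at 116 CPM in fl/WT and 64.7 in fl/fl (0.56, 0.504 to 0.617). In Necab2-high members it was at 105 and 29.9 (0.28). Much of that fl/WT level came from few deep cells, among them those of 220226 and 167049 UMIs, so the lower ratio rests on few cells. Of 41 potassium and HCN channel genes 0 were higher and 2 lower, Kcng4 (6.36 and 3.05) and Kcnip2 (18.2 and 10.4), with a median of 0.966. The inward rectifier Kcnj12, at 117 and 161 (1.39), and the delayed rectifier Kcnc2, at 35.3 and 44.0 (1.25), were higher without passing the limit.

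Of 13 neurotrophin and GDNF-family receptor genes 0 were higher and 2 lower in fl/fl, with a median of 0.944, against 1.79% of all genes lower. One of the lower genes was Gfra2, a co-receptor of Ret in several touch neurons, at 53.0 CPM in fl/WT and 31.2 in fl/fl (0.59). Ngfr (878 and 911) and Ntrk3 (130 and 123) were close. Ret itself was at 108 and 72.9 (0.68, 0.612 to 0.744), just short of the limit.

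Most transcription factor, synaptic and filament genes were within the limit. Of 34 transcription factor genes of sensory identity 0 were higher and 1, Mafa, was lower at 7.95 and 4.82 CPM (0.61). The shares over all genes were 0.35% higher and 1.79% lower. Mafa stood at 1.46 and 1.33 in Necab2-high members. Maf was at 127 and 109, Shox2 at 27.5 and 27.2, and Casz1 at 123 and 121. Among 27 genes of synaptic release 0 passed the limit and the median was 1.01. The vesicular glutamate transporters were at 454 and 466 CPM for Slc17a6 and at 527 and 532 for Slc17a7. Of 20 filament and myelinated axon genes 0 were higher and 2 lower, Gap43 (68.1 and 32.0, 0.47) and Ina (7.08 and 3.93), against 1.79% of all genes lower. Nefl (5124 and 5140) and Nefm (2926 and 3084) were close.

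Most cholinergic genes, to which the marker Colq belongs, were within the limit. Of 9 such genes 0 were higher and 1, Chrna7, was lower at 15.5 and 10.0 CPM (0.65), against 0.35% higher and 1.79% lower over all genes. Ache, the enzyme that Colq anchors, was at 399 and 397 (1.00, 0.952 to 1.04), and Bche at 13.7 and 12.4. Chrna6 was at 39.7 and 49.0 (1.23), and at 61.6 and 70.0 in Necab2-high members (1.14). Among 19 calcium-binding genes 0 were higher and 1, Calb2, lower, against 1.79% of all genes lower, with a median of 1.03. Vsnl1 was at 336 and 400 (1.19) and Necab1 at 69.0 and 82.2 (1.19). The 8 GABA-A receptor genes had 0 past the limit and a median of 1.05. Of 12 ionotropic glutamate receptor genes 0 were higher and 2 lower, against 1.79% of all genes lower. One of them was the kainate receptor Grik1 at 34.1 and 21.2 CPM (0.62).

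The opioid receptors are the genes through which enkephalins act, and members carried little of them. Oprm1, the mu receptor (chromosome 10, 6708506 to 6988198, plus strand), had 408 UMIs in fl/WT members and 160 in fl/fl, or 29.5 CPM (26.7 to 32.5) and 20.3 (17.3 to 23.7), a ratio of 0.69 (0.57 to 0.829) that misses the limit. As counted, 76 of 173 fl/WT members (43.9%) and 30 of 102 fl/fl members (29.4%) had a UMI, and 11.6% and 4.90% did at 5000 UMIs per cell. At the same 5000 UMIs the shares were 21.6% and 19.5% in the Ntrk3 gate and 5.94% and 8.70% in the Th gate. The part of free RNA in these shares was not tested. The nociceptin receptor Oprl1 was at 19.3 and 19.2 (0.99, 0.807 to 1.22), and the delta receptor Oprd1 had 38 and 12 UMIs. In cells gated on Ntrk3, Oprm1 was at 59.5 CPM in fl/WT and 44.6 in fl/fl, in those gated on Th at 17.3 and 10.2, and in those gated on Pvalb at 22.8 and 19.1. Penk had 8 UMIs in fl/WT members and 0 in fl/fl, where the exact interval allows up to 0.468 CPM. The comparison gates were alike, with 10 UMIs of Penk in fl/WT and 0 in fl/fl for Ntrk3, 11 and 1 for Th, and 15 and 0 for Pvalb.

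Most Oprm1 UMIs came from the members higher in Scn10a. In the 108 fl/WT members with less than 0.5 UMI of Scn10a per 10000, Oprm1 had 43 UMIs (4.50 CPM, 3.26 to 6.06), and in the other 65 it had 365 (85.3 CPM, 76.8 to 94.5). In fl/fl the same division, a limit chosen after the levels had been seen, gave 15 UMIs in 75 members (2.55 CPM, 1.42 to 4.20) and 145 in 27 (73.0 CPM, 61.6 to 85.9). Within the members low in Scn10a the ratio of fl/fl to fl/WT was 0.57 (0.292 to 1.04) and within the others 0.86 (0.701 to 1.04), both intervals including 1. Of the members with a UMI of Oprm1, 30 of 76 in fl/WT and 13 of 30 in fl/fl were low in Scn10a. Members with at least 0.5 of Scn10a made up 37.6% of fl/WT and 26.5% of fl/fl members, and 58.3% and 52% of those below 0.5 also had a UMI of it. Over members with Apoe under 10 per 10000 the ratio of Oprm1 over all Scn10a levels was 0.13 and that of Scn10a 0.14. Much of the fl/WT side of both ratios came from few deep cells. Such cells, of 220226, 167049 and 101159 UMIs, had 2.09, 2.93 and 2.97 of Oprm1 per 10000. Their levels of Scn10a were 9.13, 8.44 and 9.29. Over all members but the 1 that held most Oprm1 UMIs in each library, the Oprm1 ratio was 0.54. The part of the members higher in Scn10a in the Oprm1 difference was not tested.

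Some markers of pain and itch neurons were also past the limit between the libraries. Of 7 peptidergic nociceptor markers 0 were higher and 2 lower, one of them Calca, and of 8 markers of Mrgprd nociceptors 0 were higher and 3 lower, Lpar3 (12.1 and 5.33 CPM), Mrgprd (17.9 and 9.77) and Grik1. The share lower over all genes was 1.79%. The gate itself limits Calca, Mrgprd and the sum of Nppb and Il31ra. Nothing is read from their values or from the counts and sums that hold them. Summed over 9 peptidergic markers, all detected, the levels were 197 CPM in fl/WT and 150 in fl/fl, with per-cell ranges of 0 to 15.9 and 0 to 14.3 per 10000. Of 5 itch neuron markers with enough UMIs, 4 were higher in fl/fl and 0 lower, against 0.35% of all genes higher. The 4 were Il31ra (48 and 84 UMIs), which the gate limits, Cysltr2 (51 and 62), Osmr (139 and 130) and Htr1f (56 and 71). These rested on few cells, since 1 fl/fl cell held 51.2% of the Il31ra and 50% of the Cysltr2 UMIs of the fl/fl members.

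The 10 genes with the highest ratio held these itch genes and genes of connective tissue. The ratio of Il31ra, the interleukin 31 receptor, whose level the gate limits, was 3.07 (2.13 to 4.48), but 0.54 with the limits of the gate on other neurons' genes set to 1 per 10000 and 0.50 over members with Apoe under 10. Htr1f was at 2.23 and Cysltr2 at 2.14. Over Necab2-high members the ratios of these 3 genes were 2.80, 3.57 and 2.16, and with each member weighted equally 1.22, 1.42 and 1.03. Htr1f was at 0.34 in members thinned to 5000 UMIs and Cysltr2 at 0.66 over members with Apoe under 10, both turned in direction. The collagens Col1a1 (26.4 and 58.6 CPM, 2.22), Col3a1 (22.8 and 41.6, 1.83) and Col6a2 (4.70 and 8.63, 1.84) and fibronectin, Fn1 (4.62 and 8.76, 1.89), are fibroblast products. In Necab2-high members their ratios were 1.36, 1.16, 1.09 and 0.86, and in droplets found in 1 library only those of Col1a1, Col3a1 and Col6a2 were 0.77, 0.99 and 0.90. Over 7 fibroblast markers, all detected, the summed level was 243 CPM in fl/WT and 270 in fl/fl, with quartiles per cell of 0.176 and 3.28 per 10000 in fl/WT and 0.115 and 3.50 in fl/fl. Of the 6 fibroblast markers with enough UMIs, Col1a1 and Col3a1 were higher and Mgp (13.6 and 8.50 CPM, 0.63) lower, with a median ratio of 0.985. The part of fibroblasts in the collagen values was not tested.

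Dmpk, Gpx2 and Far2 were also among the highest, and none of them is on a list of markers of another cell type. Dmpk, the myotonic dystrophy protein kinase (chromosome 7, 18817406 to 18827746, plus strand), was at 13.4 CPM in fl/WT and 27.0 in fl/fl (2.01, 1.64 to 2.46), and at 19.1 and 38.4 in Necab2-high members (2.01). It was seen in 45 of 173 and 29 of 102 members, and 1 cell held 21.5% and 16% of its UMIs. In droplets of 1 library only its ratio was 3.28, and in cells gated on Ntrk3 it was at 22.3 and 20.4 CPM. Gpx2, a glutathione peroxidase, was at 4.55 and 9.01 (1.98, 1.39 to 2.82) with a ratio of 2.47 in Necab2-high members and of 1.37, under the limit, with Apoe under 10. Gpx2 was also higher in fl/fl in the cells gated on Th, at 18.4 and 30.4, and on Ntrk3, at 2.10 and 4.39. Far2, which makes fatty alcohols, was at 3.83 and 7.23 (1.89, 1.28 to 2.80), with a ratio of 1.63 in Necab2-high members. Among abundant genes Rgs5, a brake on G protein signalling, was at 284 and 437 CPM (1.54, 1.47 to 1.61) and at 445 and 620 in Necab2-high members (1.39, under the limit), with a ratio of 1.26 where Apoe was under 10. Rgs5 is also a marker of mural cells, whose other eligible markers Tagln and Pdgfrb were lower in fl/fl. In cells gated on Ntrk3 Rgs5 stood at 23.0 and 22.8 CPM and in those gated on Th at 456 and 507.

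The 3 lowest ratios were those of Hbb-bs, Ptk2b and Trappc3l. Hbb-bs, a globin, had 285 UMIs in fl/WT and 2 in fl/fl members, and 1 fl/WT cell held 73.7% of them. Ptk2b, a calcium-activated kinase, was at 10.8 and 1.90 CPM (0.18), and at 0.43 in Necab2-high members. Trappc3l, abundant in the Ntrk3 gate, was at 37.6 and 8.38 in members (0.22, 0.17 to 0.288) and at 16.8 and 5.11 in Necab2-high members (0.30). In the Ntrk3 gate it was at 574 and 518, and over members in droplets of 1 library only the ratio was 0.08. Calb2 (0.31) rested on the few cells named above. Its ratio was 1.23 among members at or below the median of glial markers and 0.52 in Necab2-high members. Pdlim2 (8.31 and 2.67, 0.32), Myl9 (11.0 and 3.55, 0.32), the phospholipase Pla2g4e (9.68 and 3.43, 0.35), Clec18a (9.39 and 3.43, 0.36), the protocadherin Pcdhb4 (8.74 and 3.55, 0.41) and Rgs8 (8.89 and 3.81, 0.43) were all low in level. In Necab2-high members the ratios of these genes, in that order, were 0.29, 0.13, 0.40, 0.18, 0.59 and 0.21. Thinned to 5000 UMIs the ratio of Myl9 was 0.77 and that of Clec18a 0.85, and with each member weighted equally that of Rgs8 was 0.69. Pla2g4e was lower in fl/fl in the cells of the Ntrk3 gate too, at 7.92 and 2.50, in those of the Th gate, at 9.41 and 0.945, and in those of the Pvalb gate, at 10.8 and 5.70.

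**Figure D5:**
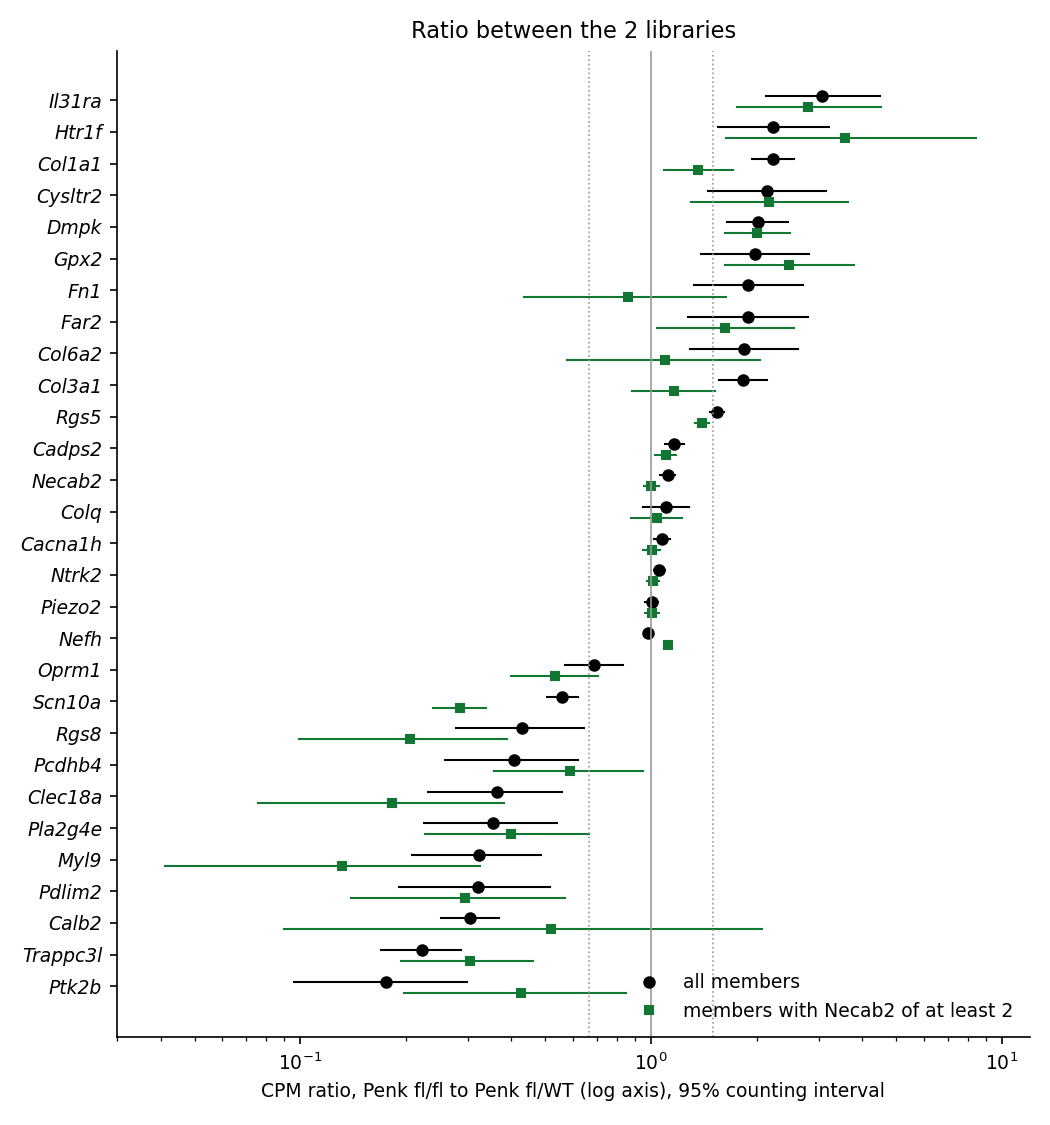
CPM ratio of fl/fl to fl/WT (log axis) for the genes with the highest and lowest ratio and for the markers, over all members (black circles) and over Necab2-high members (green squares), with 95% counting intervals; dotted lines mark 1.5-fold and Hbb-bs, at 0.01, is not drawn. Il31ra, Htr1f, Cysltr2, Dmpk, Gpx2 and Far2 are past 1.5-fold in both sets, and the collagens, Fn1 and Rgs5 only over all members. The gate limits Il31ra.

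None of the listed genes of activity and stress was past the limit upward, and some were past it downward. The medians of their lists were under that of all genes. Of 21 immediate early genes 0 were higher and 3 lower, Egr3 (12.9 and 7.11 CPM, 0.55), Nr4a1 (54.8 and 35.9, 0.66) and Klf2 (9.39 and 6.22, 0.66), with a median of 0.855, against 1.79% of all genes lower. Egr1 was at 28.0 and 19.0 (0.68, 0.559 to 0.82), Fos at 11.0 and 9.39 (0.86) and Jun at 117 and 116. In Necab2-high members Egr1 was at 22.3 and 9.47 (0.42) and Nr4a1 at 39.0 and 16.7 (0.43). In the cells gated on Ntrk3 Egr1 was at 16.4 and 11.8 and Nr4a1 at 29.1 and 15.6. Of 19 glucocorticoid-induced genes and metallothioneins 0 were higher and 2, Plin4 (0.53) and Sult1a1 (0.53), lower, with a median of 0.816. The metallothioneins Mt1 (128 and 89.6 CPM, 0.70) and Mt2 (72.2 and 49.6, 0.69) fell just short of the limit. Among 28 interferon-stimulated genes 0 passed it and the median was 0.847, with Ifit1 at 79.2 and 53.8 (0.68) and Oasl2 at 198 and 151 (0.76). These medians stand beside 0.982 over all genes. The summed satellite glia markers were also lower in fl/fl, at 3532 against 4414 CPM, and their part in these list medians was not tested.

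Foxp3, the gene that drives the recombinase, had 0 UMIs in members of both libraries, which allows up to 0.267 and 0.468 CPM, as did Cd3e, Cd3g, Trbc2 and Il2ra of T cells. Of 8 T cell markers, 3 had any UMI in fl/WT and 1 in fl/fl, with summed levels of 0.506 and 0.762 CPM. Snhg11 (272 and 180 CPM, 0.66), Rtl8b (97.7 and 62.7, 0.64), Cc2d1b (46.1 and 25.9, 0.56) and Tmem267 (41.3 and 24.1, 0.58) were lower in fl/fl members, and in Necab2-high members the ratios were 0.61, 0.63, 0.58 and 0.60. The same direction was seen in the cells gated on Ntrk3 (Snhg11 at 223 and 139, Rtl8b at 117 and 72.6, Cc2d1b at 49.0 and 25.6, Tmem267 at 50.5 and 29.0). In the cells gated on Th Snhg11 was at 435 and 350 and Rtl8b at 95.3 and 61.4, and in those gated on Pvalb at 185 and 124 and at 84.1 and 48.9.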

How the data were processed

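Each of the 2 groups was 1 library. The authors deposited unnormalized UMI counts for every gene in every called barcode. The labels' protocols name Cell Ranger 7.0 and the genome GRCm39, whereas the file headers name version 8.0.1. Seurat also appears among the submitters' processing notes, where its use is not stated. The series text speaks of nuclei and the labels of fixed cells. Both matrices list 19059 genes.

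Members were found by applying the limits of the gate to the counts, with no clustering and no doublet caller. Counts were summed over cells of a library and divided by their total UMIs to give CPM. Intervals (95%) are exact Poisson for a level, exact conditional binomial for a ratio and Clopper-Pearson for a share. UMIs were taken as independent, which leaves out the spread between cells and animals. A floor of 3 counts applied to groups at 0. The calculation was tested on simulated counts. Depth per member, 5081 to 298042 UMIs, sets the precision of single cells.

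With 1 library per group no p-value was computed. Members, gates and gene lists were chosen with earlier results of these data known. Named genes were the markers and list genes described by role, the 10 highest and 10 lowest ratios between genotypes, the 10 highest and lowest per gate (a part of them printed) and the 10 with the highest Fano factor. The genes of the Necab2 groups, Snhg11, Rtl8b, Cc2d1b and Tmem267 were named after their values were seen. Positions come from GENCODE. Some genes are not reported here, though counts over gene lists include them. The tools were pandas 2.3.3, scipy 1.17.1, numpy 2.4.6 and matplotlib 3.10.9 under Python 3.11.15.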

Additional observations from a re-analysis of the deposited data

How the results depend on the processing

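No paired analysis was possible because each group is 1 library with no replicate number. Alternatives limited to Necab2-high members or to Apoe under 10 per 10000 were chosen after seeing the data. The 37 genes higher in fl/fl became 19 with Apoe under 10, 145 with each member weighted equally, 125 with at least 30 UMIs per gene and 8 with at least 300. The 189 lower genes became 312 with Colq of at least 2 UMIs, 443 in droplets of 1 library only, 303 in Necab2-high members, 50 with members thinned to 5000 UMIs, 462 with at least 30 UMIs and 50 with at least 300. So the counts depend on the setting, and thinning or a higher minimum also leaves fewer genes tested. Against the gates, thinning gave 22 higher and 21 lower genes for Ntrk3, 54 and 67 for Th, and 56 and 78 for Pvalb. Necab2-high members gave 230 lower for Ntrk3, 263 higher for Th and 366 lower for Pvalb, and droplets of 1 library 261 higher for Th. Ratios that turned direction were Il31ra (0.539 with exclusion limits of 1, 0.821 at or below the median of glial markers, 0.504 with Apoe under 10), Cysltr2 (0.767 and 0.664 in the last 2 of these), Htr1f (0.339 thinned), Fn1 (0.857 in Necab2-high members), Calb2 (1.23 at or below the median of glial markers), Col1a1, Col6a2 and Col3a1 (0.772, 0.899 and 0.989 in droplets of 1 library), and Mafa (1.08 with Colq of at least 2, 1.01 with equal weights, 1.02 thinned). The cause was not tested. Of 594 values of 54 gene ratios, 385 moved within their counting interval, 195 moved more and 14 turned. All 7 alternatives of the share ratio lay within its interval, from 0.826 to 1.07.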
